A study of Mus musculus with 15 samples.

Results

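The subject is the solute carrier genes, the membrane transporters whose symbols start with Slc and a number. They were chosen by symbol alone: every gene in the deposited table whose symbol matched that form was a member, which gave 124 of 8446 rows in 38 numbered families. The 15 samples are single Tomato+ cells from inguinal white fat of adult C57BL/6 mice of the genotype Prrx1-CreERT;Tomato. Tamoxifen at 2 mg per 30 g of body weight, given once a day for 3 days, lets the Cre recombinase that the Prrx1 promoter drives switch on the Tomato reporter for good. The fat was digested with collagenase for 1 h at 37 °C, cells were sorted for Tomato, and single cells were picked under a fluorescence microscope. All cells share this genotype and treatment, there is no untreated group, and the animals are not named, so the 15 cells form 1 sample of an unknown number of mice and no test between conditions exists.

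Solute carriers move what a cell eats, stores and discards across its membranes. Amino acid, sugar and monocarboxylate carriers of the plasma membrane feed metabolism, zinc, iron, copper and magnesium carriers set the level of metals in each compartment, and the Slc25 family exchanges nucleotides, phosphate and metabolites across the inner mitochondrial membrane. The Slc35 family brings activated sugars and sulfate into the Golgi and endoplasmic reticulum, where fibroblasts build the chains of their matrix proteins. In white fat, stromal progenitors are the cells that can become adipocytes, and adipocytes later rely on glucose, fatty acid and citrate transport.

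Values below are log2(FPKM + 1), a level per transcript length, unless a count or a percentage is named. A gene was called detected in a cell at 1 FPKM, a value of 1.00, or more. Shares of cells carry exact Clopper-Pearson 95% intervals, which cover counting error only, and read depth is unknown because the values hold no counts. The values had been brought to the same distribution in every cell, so each cell detected 4369 rows (51.7%). Of the fixed stromal markers with a row, 9 of 9 were detected in 8 or more cells, among them Col1a1, Col3a1, Lum and Cd34. Some markers of other cell types were also seen: 3 of 5 mural genes with a row reached 8 or more cells, and the mean of that list was highest in cell 5 (8.72, median over cells 1.29). Of the erythroid list 1 of 5 genes had a row, Alas2, detected in 14 cells, and of the Schwann cell list Mbp was detected in 13. The endothelial and immune lists had 2 genes and 1 gene with a row, each in fewer than 8 cells, as were the 4 mature adipocyte markers with a row. The cell cycle list was highest in cell 13 (11.12, median 0.12). The part of these genes' cells in the carrier values was not tested.

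Most solute carriers were detected in a few cells each. Of the 124 members, 7 were detected in all 15 cells, which is 5.65% against 12.1% of all rows. In 8 or more cells 35 members were detected (28.2%, against 46.8% of all rows), and 63 were detected in 3 to 7 cells (50.8%, against 41.2%). Detection in 2 or fewer cells was found for 26 members (21%, against 12.1%), of which Slc46a1 and Slc25a46 passed 1 FPKM in no cell (1.61%, against 1.01% of all rows). At 5 FPKM, a value of 2.58, the members detected in 8 or more cells were 23 (18.5%, against 32.6%). For detection in 0 of 15 cells the interval reaches 21.8%.

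**Figure D1:**
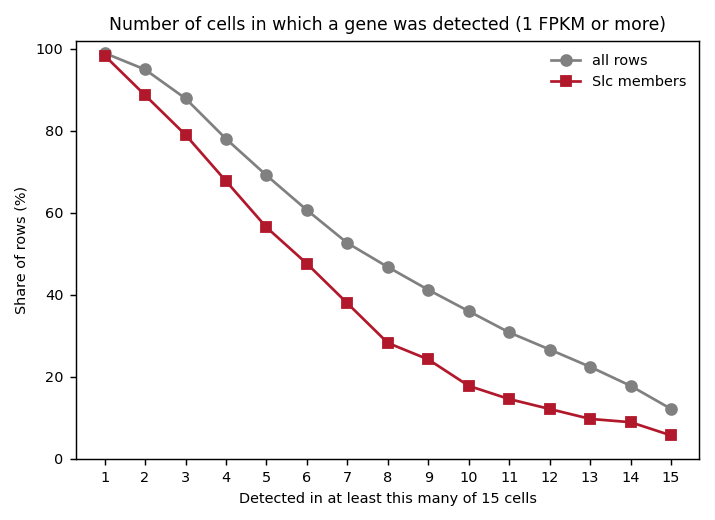
Share of genes (vertical axis, %) detected at 1 FPKM or more in at least the number of cells on the horizontal axis, for all 8446 rows (grey circles) and the 124 Slc members (red squares). The members lie below all rows at each number of cells, with 28.2% against 46.8% at 8 cells.

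The members' levels were low in the same way. The median over members of the mean value was 1.37, against 1.89 for all rows. A value under 0.5 made up 52.9% of the members' values and 41.5% of all values, while values of 7 or more made up 4.95% and 10.6%. Where a carrier was on in a cell, it could still be high: the highest value of a member had a median of 5.71 (6.35 for all rows), and 119 members reached 5 FPKM in at least 1 cell (96%, against 96.9%). The gap between the highest value and the median over cells was 4.41 for members and 4.41 for all rows, and it was 5 or more for 49 members (39.5%, against 37.9% of all rows), close to the background. Members had somewhat longer transcripts (median 3600.5 nt, against 3262 nt), and the library kit reads 3' ends while FPKM divides by length.

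Promoter letters are given for 2 carriers, an amino acid carrier and a metal carrier, whose windows hold the letters searched for their group. Slc7a11, the light chain that imports cystine in exchange for glutamate, is a known target of the amino acid response, and its window holds the composite core TGATGNAA. Slc39a7 releases zinc from the endoplasmic reticulum and Golgi and was the most widely detected metal carrier. Its window holds TGCNCNC, a looser form of the metal response core, in which N is any letter. The core itself has A or G at the first N. The 2 Slc39a7 matches, read in the direction of the core, have T and C there. Each window is the 250 bases before the RefSeq start in GRCm38.p6, printed 5′ to 3′ on the gene's strand, with matches on either strand in capitals. The Slc7a11 window lies at chr3:50443614-50443863 on the minus strand and the Slc39a7 window at chr17:34031691-34031940 on the minus strand.
Slc7a11: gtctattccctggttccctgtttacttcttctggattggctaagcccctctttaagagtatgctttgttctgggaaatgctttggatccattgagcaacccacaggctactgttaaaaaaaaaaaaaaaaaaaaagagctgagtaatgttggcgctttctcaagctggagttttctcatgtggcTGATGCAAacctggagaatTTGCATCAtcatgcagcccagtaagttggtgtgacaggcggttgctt
Slc39a7: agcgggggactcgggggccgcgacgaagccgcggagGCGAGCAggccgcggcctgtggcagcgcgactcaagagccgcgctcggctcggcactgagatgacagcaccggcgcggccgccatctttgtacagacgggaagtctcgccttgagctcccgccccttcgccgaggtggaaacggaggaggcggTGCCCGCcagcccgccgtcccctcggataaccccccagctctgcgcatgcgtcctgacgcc
The Slc7a11 window has 2 matches, on opposite strands, and so has the Slc39a7 window. Of the 11 amino acid carriers with a promoter, Slc7a11 was the only holder of TGATGNAA, which 3.91% of all 27025 genes hold in a window of this length. The looser form TGCNCNC is common: 12 of 18 metal carriers with a promoter hold it (66.7%), as do 57.4% of the 101 members with a promoter and 47.2% of all genes. Shares for the metal response core itself were not computed. For the factor NRF1 only a fixed string of letters, without N, was searched. That exact string was found in 0 of 19 mitochondrial carriers with a promoter and in 0.877% of all genes. Looser forms of the site were not searched, so the shares do not show that these carriers lack NRF1 sites. The matches given here describe letters and do not show that a factor binds.

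Mitochondrial carriers held the highest values. Slc25a5 and Slc25a4 are the adenine nucleotide carriers that pass ATP out of the mitochondrion and ADP in. Slc25a5 (ENSMUSG00000016319, X chromosome, 36795651 to 36798807, plus strand) ran from 4.50 in cell 4 to 10.05 in cell 3, with a median of 8.23, and ranked 309th of all rows by median. Slc25a4 (chromosome 8, 46206797 to 46211284, minus strand) was the more even of the pair, from 5.78 in cell 11 to 8.20 in cell 6, with a median of 7.79 and an SD over cells of 0.69, against 1.44 for Slc25a5. Slc25a3, which imports the phosphate for ATP synthesis, ran from 5.94 in cell 9 to 8.61 in cell 4, with a median of 7.59. These 3 genes were the only members at 5 FPKM or more in all 15 cells (2.42%, against 7.03% of all rows). The ranges of the 3 overlap, and the differences between their medians are smaller than their spread over cells. Of the 31-letter words of the longest Slc25a5 transcript, 67.1% occur in transcripts of 13 other genes, so that its value is uncertain. Slc25a4 and Slc25a5 are paralogues with the same task, and their ranks of the cells had little in common (Spearman rho 0.05, Pearson r 0.29, and r 0.02 without cells 10 and 11, n = 15 cells of shared processing).

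Slc25a39, which supplies glutathione to mitochondria, was also detected in all 15 cells, but unevenly. Its highest cells were 9 (8.58), 4 (8.20) and 3 (8.05) and its lowest 14 (1.51) and 7 (1.64), with a median of 6.35. Slc25a17, a carrier of this family that sits in peroxisomes and moves coenzyme A and other cofactors, was detected in 13 cells (86.7%, interval 59.5% to 98.3%), with a median of 4.96 and 7.20 in cell 13. Slc25a24, a calcium-regulated carrier of ATP-Mg and phosphate, was detected in 10 cells, with a peak of 7.34 in cell 10, and stood below 0.5 in cells 2, 3, 6 and 12. Slc25a1 exports citrate, the carbon source of fatty acid synthesis. It was detected in 9 cells, led by cell 6 (6.95), cell 8 (6.65) and cell 4 (6.37), and was listed at 0.00 in cell 13. Slc25a51, the NAD carrier, was likewise detected in 9 cells, highest in cell 10 (5.70). Slc25a11, which exchanges oxoglutarate for malate, passed 1 FPKM in 12 cells but 5 FPKM in 4, led by cell 2 (7.02), cell 3 (6.16) and cell 1 (5.82).

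The other 15 carriers of the Slc25 family were detected in 7 or fewer cells. Slc25a20 imports fatty acids bound to carnitine for oxidation. It stood either high or low: 7 cells held it between 4.07 and 7.22, highest in cell 15, and the other 8 stood at 0.55 or less. Slc25a28, an iron importer known as mitoferrin 2, was detected in 6 cells, led by cell 10 (7.33) and cell 3 (6.21). Some carriers were high in very few cells: Slc25a22, a glutamate carrier, was detected in cells 10 (7.56), 15 (4.22) and 8 (3.28), with a median of 0.00. Slc25a38, which brings glycine in for heme synthesis, stood at 7.20 in cell 15 and 6.45 in cell 10 and at 0.72 or less in the other 13 cells. Slc25a10, the dicarboxylate carrier, was detected in 5 cells, up to 4.02 in cell 11. Slc25a16 and Slc25a36 were detected in 6 cells each, Slc25a26 in 5, Slc25a12 and Slc25a14 in 4, Slc25a42 in 3, Slc25a25 and Slc25a32 in 2, and Slc25a46, which shapes the outer membrane, in none. The family as a group had 9 of 24 members in 8 or more cells (37.5%, against 46.8% of all rows), and each cell detected between 8 of them (cell 5) and 14 (cells 8 and 10).

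**Figure D2:**
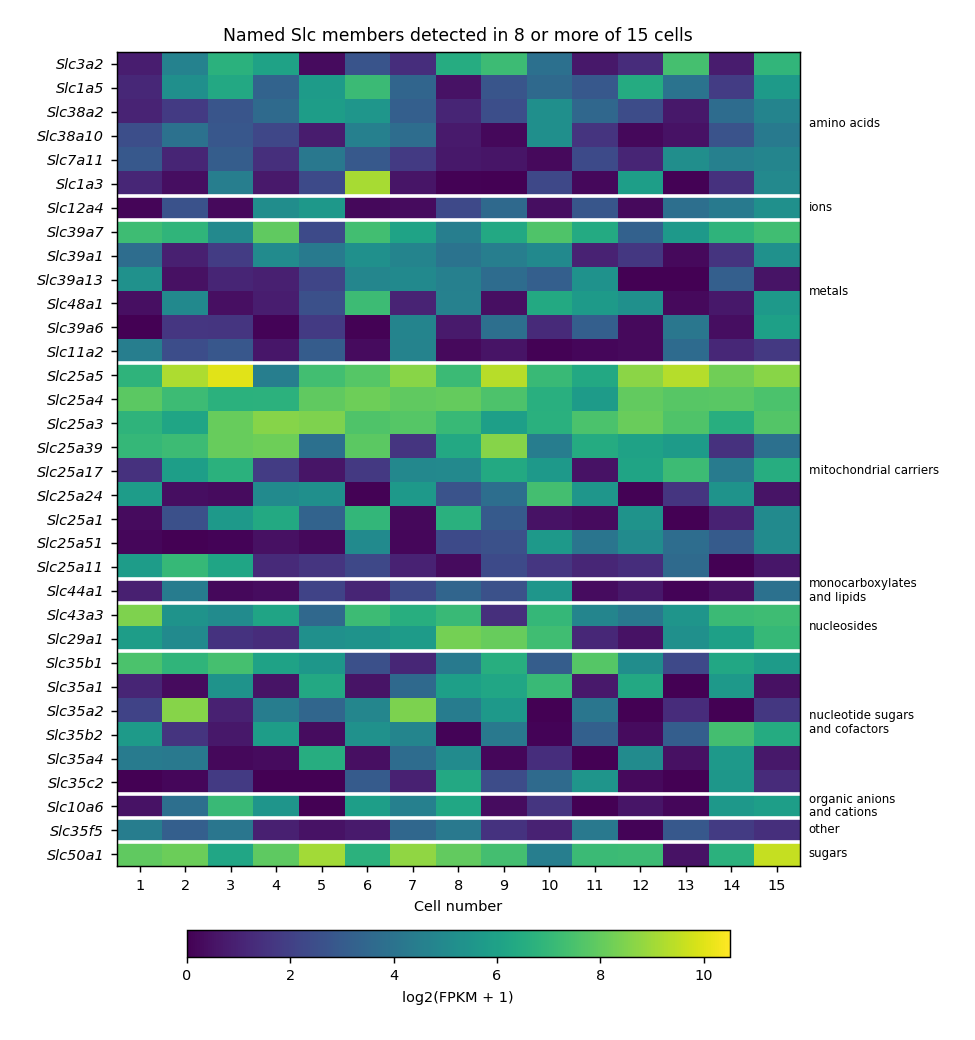
Values of the members named in the text that were detected in 8 or more cells (rows, by substrate group and then by median) in the 15 cells (columns), as log2(FPKM + 1) by colour. Slc25a5, Slc25a4, Slc25a3 and Slc39a7 are bright in nearly all columns, while most other rows change from cell to cell.

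Amino acid carriers had 6 of 13 members in 8 or more cells (46.2%, close to the 46.8% of all rows). Slc3a2 is the heavy chain that several light chains need to reach the plasma membrane. It split the cells: values of 6.07 to 7.40 stood in cells 3, 4, 8, 9, 13 and 15, values of 2.73 to 4.65 in cells 2, 6 and 10, and values of 0.30 to 1.38 in the other 6 cells. Slc7a11, the cystine-importing partner of Slc3a2, was detected in 12 cells (80.0%, interval 51.9% to 95.7%), with a median of 2.36 and its highest values in cells 13 (5.19), 15 (4.80), 14 (4.55) and 5 (4.21). Both chains were highest in cell 13, but cells 5 and 14 held Slc7a11 with Slc3a2 at only 0.30 and 0.78. Over the 15 cells the pair had a rho of −0.06 and an r of −0.07 (r −0.18 without cells 5 and 13). Another light chain of Slc3a2 is Slc7a6, an exchanger of cationic and neutral amino acids, which was detected in 3 cells, highest in cell 6 (6.02).

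Glutamine and other neutral amino acids enter through Slc1a5 and Slc38a2, and both were detected in 14 of 15 cells (93.3%, interval 68.1% to 99.8%). Slc1a5 had a median of 3.61, led by cell 6 (7.16), cell 12 (6.47) and cell 3 (6.32), and stood at 0.51 in cell 8. Slc38a2, which cells raise when amino acids run short, had a median of 3.18, a high of 5.84 in cell 5 and a low of 0.67 in cell 13. Over cells the pair had a rho of 0.36 and an r of 0.46, which was 0.22 without cells 6 and 8. Slc1a3, a glutamate and aspartate importer, was detected in 8 cells and stood far higher in cell 6 (9.13) than in the next, cells 12 (5.88), 15 (4.93) and 3 (4.50), while 7 cells were below 1 FPKM. Slc38a10 was detected in 10 cells, highest in cell 10 (5.23). Slc7a1, the arginine and lysine importer, was detected in cells 3 (4.60) and 2 (3.80) alone. Slc6a6, which takes up taurine, was detected in 4 cells, led by cell 9 (4.15) and cell 1 (3.54), and Slc43a2, a carrier of branched-chain amino acids, in 5, highest in cell 12 (5.89). Slc38a6, Slc43a1 and Slc36a4 were detected in 2 cells each, at up to 3.91, 3.90 and 3.68, and 59.3% of the letters of Slc38a6 are shared with other genes.

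Genes that sense amino acids were listed beside the carriers. Of 16 such genes 13 had a row, and 9 of these were detected in 8 or more cells, where 46.8% of all rows were; the difference from the carriers was not tested. Atf4, the transcription factor of the amino acid response, was detected in all 15. Atf4 had a median of 6.89 and its highest value in cell 13 (9.61), as did Ddit3, a stress factor downstream of it (8.91). Cell 13 thus held the highest values of Slc3a2, Slc7a11, Atf4 and Ddit3, and it is also the cell in which the cell cycle list was highest. Other genes of the list differed in cell 13: Gclc was highest there (1.53), but Asns stood at 0.93 and Glul was lowest (0.47). The carrier Slc38a2 was lowest there too (0.67). An amino acid response in cell 13 was not tested. Across cells the relation of the 2 carriers to Atf4 was weak: rho was −0.18 for Slc7a11 and Atf4 and 0.33 for Slc3a2 and Atf4, and −0.45 and 0.17 without cell 13. These 2 pairs were chosen after their values had been seen.

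**Figure D3:**
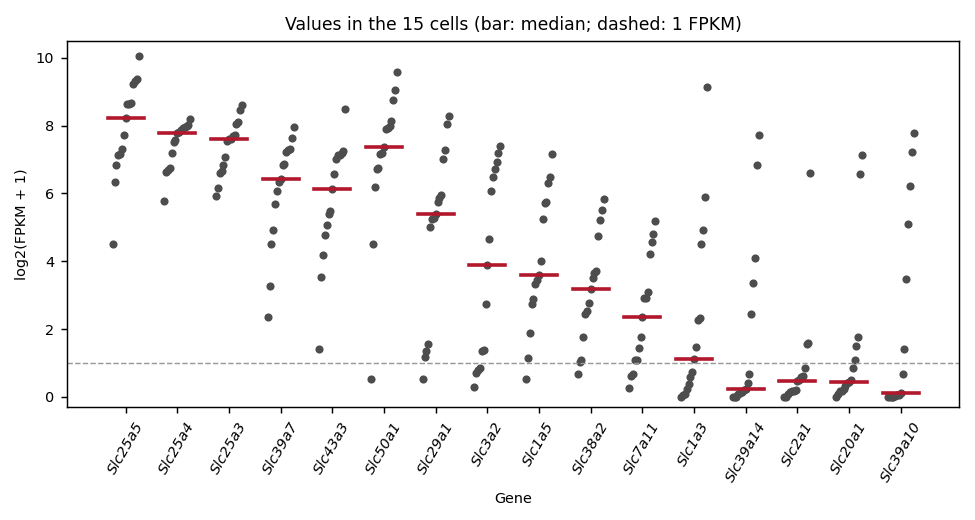
Values of 16 members in each of the 15 cells (dots, log2(FPKM + 1)) with the median (red bar), with 1 FPKM dashed. Slc25a4 spans 5.78 to 8.20, whereas Slc3a2 is spread from 0.30 to 7.40 and Slc1a3, Slc39a14, Slc2a1, Slc20a1 and Slc39a10 have medians near or below the dashed line and a few high cells.

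Metal carriers numbered 22, of which 6 were detected in 8 or more cells (27.3%, against 46.8% of all rows). Slc39a7 (ENSMUSG00000024327, chromosome 17, 34028269 to 34031682, minus strand) was detected in all 15 cells, with a median of 6.42, 7.95 in cell 4 and 7.62 in cell 10, and a low of 2.37 in cell 5. Transcripts of the gene Gm20427 share 84.1% of its letters, so its value is uncertain. The plasma membrane zinc importer Slc39a1 was detected in 12 cells at a median of 3.98. It stayed between 3.74 and 5.32 in 9 of them, with 0.28 in cell 13. Of its letters 27.7% are shared with other genes (26.4% with Slc39a1-ps), so its value is uncertain too. Slc39a13, a zinc carrier that connective tissue needs, was detected in 10 cells, with 5.34 in cell 11, 5.32 in cell 1 and values of 0.00 in cells 12 and 13. Slc39a6 was detected in 9 cells, up to 5.99 in cell 15. Slc39a10 and Slc39a14 were each high in a few cells. Slc39a10 was led by cells 13 (7.79), 9 (7.22), 3 (6.22) and 1 (5.09), against a median of 0.12. Slc39a14, which takes up zinc, iron and manganese, was detected in cells 10 (7.71), 4 (6.84), 6 (4.10), 13 (3.35) and 2 (2.45), and stood at 0.68 or less in the other 10 cells. The metallothionein gene Mt2, which stores zinc, was detected in all cells at a median of 11.75 and did not follow Slc39a14 (rho −0.01, r −0.00, and r −0.36 without cells 4 and 10).

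Zinc exporters and importers were both represented. None of 5 Slc30 genes and 4 of 9 Slc39 genes were detected in 8 or more cells, where 46.8% of all rows were. The difference was not tested. Among the 4, Slc39a7 and Slc39a1 have uncertain values because of shared letters. Slc30a4 and Slc30a5 were detected in 7 cells each, up to 4.86 in cell 3 and 6.07 in cell 6. Slc30a9 was detected in 6 cells, with 6.90 in cell 9, Slc30a7 in 4, and Slc30a6 in cell 2 alone (2.87). Heme and iron leave their compartments through other carriers. Slc48a1, which moves heme out of lysosomes, was detected in 9 cells, led by cell 6 (7.21) and cell 10 (6.37). Slc11a2, which releases iron from endosomes, was detected in 8, led by cell 7 (4.68) and cell 1 (4.50). The iron store gene Ftl1 was detected in all 15 cells, from 9.98 to 12.17. Copper importers were uneven. Slc31a1 was between 3.29 and 5.71 in 7 cells and at 0.90 or less in the other 8. Slc31a2 ranged up to 6.82 in cell 10 and was listed at 0.00 in cells 1, 13 and 14. Magnesium carriers were scattered, with Slc41a1 at 7.39 in cell 12, Slc41a2 at 6.30 in cell 7 and Slc41a3 at 5.52 in cell 11. Slc22a17, a receptor of the iron-binding lipocalin 2, was detected in 4 cells, up to 5.79 in cell 7. Slc39a3 was detected in cell 5 alone (5.74), Slc39a11 in 3 cells, and Slc39a9 in 5.

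Nucleoside and nucleobase carriers had 3 members, and 2 of these were among the most widely detected carriers. Slc43a3, which takes up purine nucleobases, was detected in all 15 cells (ENSMUSG00000027074, chromosome 2, 84936579 to 84958509, plus strand), with a median of 6.13, a high of 8.49 in cell 1 and a low of 1.41 in cell 9. Slc29a1, the equilibrative carrier that takes up adenosine, was detected in 14 cells, with a median of 5.40. It was highest in cell 8 (8.29) and cell 9 (8.05) and low in cells 3 (1.55), 4 (1.34), 11 (1.16) and 12 (0.52). Cell 9 thus had the lowest Slc43a3 and the next to highest Slc29a1. Slc29a3, the lysosomal form, was detected in cells 2 (2.14) and 14 (2.16) only. Of the genes that process nucleosides, Pnp, the purine nucleoside phosphorylase that yields nucleobases, was detected in all 15 cells (median 8.20), Adk in 11 and Ada in none.

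Sugar carriers were detected in few cells, apart from Slc50a1: 1 of 7 was detected in 8 or more cells (14.3%, against 46.8% of all rows). Slc50a1, a sugar efflux carrier of the Golgi and plasma membrane, was detected in 14 cells (median 7.38) and was the fourth highest member by median. It ranged from 4.50 in cell 10 to 9.58 in cell 15 in these, and stood at 0.53 in cell 13. Slc2a1, the basal glucose carrier of most cells, stood at 6.61 in cell 9 and passed 1 FPKM in 2 further cells, 4 (1.58) and 13 (1.57). Cell 9 also held the highest value of Hk2, the hexokinase that traps glucose (7.72). The r of 0.64 for Slc2a1 and Hk2 was −0.02 without cells 4 and 9 (rho 0.18), and the pair was chosen after its values had been seen. Slc2a10 reached 3.80 at most and was detected in 6 cells, and Slc2a8 in 3, led by cell 1 (5.37) and cell 12 (4.72). Slc5a3, which takes up myo-inositol, was detected in 4 cells, led by cell 3 (6.43) and cell 12 (5.33). Slc37a3 and Slc45a3 were detected in 4 cells each, at up to 5.83 and 5.85. Of the glycolysis list 12 of 13 genes with a row were detected in 8 or more cells, among them Aldoa (median 8.52) and Ldha (6.85). That list was picked for well-known and often abundant genes, and its difference from the sugar carriers was not tested. The insulin-responsive glucose carrier Slc2a4 was not analysed here.

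Carriers of monocarboxylates, choline and fatty acids had 1 of 4 members in 8 or more cells (25%, against 46.8% of all rows). Slc16a1, which moves lactate and pyruvate, was detected in 6 cells, led by cell 2 (5.18), cell 3 (4.11) and cell 1 (4.07). Its chaperone Bsg was detected in all 15 cells, from 6.29 in cell 13 to 10.36 in cell 2, as was Mpc1, and Mpc2 in 14; the latter are the subunits of the mitochondrial pyruvate carrier. Slc16a1 and Bsg had a rho of 0.26 and an r of 0.47, which was −0.06 without cells 2 and 3. Slc44a1, a choline carrier, was detected in 8 cells, with its peak of 5.53 in cell 10, and Slc44a2 in 5, highest in cell 5 (4.23). Slc27a4, a fatty acid carrier with acyl-CoA synthetase activity, was detected in 3 cells, led by cell 1 (4.11) and cell 11 (3.11). Cd36, a fatty acid receptor outside the Slc symbols, was detected in 11 cells, up to 9.22 in cell 4.

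Nucleotide sugar and cofactor carriers of the secretory pathway had 6 of 13 members in 8 or more cells (46.2%, close to the 46.8% of all rows). Slc35b1, which brings ATP into the endoplasmic reticulum, was detected in all 15 cells, with a median of 5.78, from 1.13 in cell 7 to 7.75 in cell 11. Slc35a2, the UDP-galactose carrier of the Golgi, stood at 8.61 in cell 2 and 8.43 in cell 7, well above cell 9 (5.64), and was listed at 0.00 in cells 10, 12 and 14. Slc35a1, the CMP-sialic acid carrier, was uneven: 8 cells stood between 3.60 and 7.11 and the other 7 at 1.09 or less. Slc35b2, which imports the sulfate donor PAPS, was detected in 10 cells, led by cell 14 (7.36), cell 15 (6.45) and cell 4 (5.86). Slc35a4 and Slc35c2 were detected in 8 cells each, at up to 6.53 and 6.33, and Slc35b3, another PAPS carrier, in 7, at up to 6.07 in cell 9. Slc33a1, which brings acetyl-CoA into the endoplasmic reticulum, was detected in 6 cells (up to 5.68), Slc35a5 in 5, Slc35b4 in 4, and the GDP-fucose carrier Slc35c1 and Slc35d1 in 3 each. Slc35a3, which carries UDP-N-acetylglucosamine, was detected in 2 cells, 8 (3.11) and 9 (3.02).

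Ion carriers were the least widely detected large group, with 1 of 15 in 8 or more cells (6.67%, against 46.8% of all rows) and 6 in 2 or fewer. Slc12a4, a potassium-chloride cotransporter that adjusts cell volume, was the 1 exception, in 9 cells, with a median of 2.66 and 5.58 in cell 5, 5.28 in cell 15 and 5.16 in cell 4. Slc4a2, a chloride-bicarbonate exchanger, was detected in 7 cells, up to 5.82 in cell 10. It shares 13.7% of its exon bases with Fastk on the opposite strand. Slc20a1, a phosphate importer, stood at 7.15 in cell 9 and 6.57 in cell 8 and at 1.75 or less elsewhere. Slc8b1, which exports calcium from mitochondria, was detected in 6 cells, up to 6.93 in cell 6. Slc12a2, the sodium-potassium-chloride importer, was detected in cells 13 (5.10), 12 (4.31) and 11 (2.63). Slc4a4, a sodium-bicarbonate cotransporter, reached 3.55 at most and was detected in 4 cells, and Slc4a7 and Slc24a3 in 3 each, both highest in cell 6. Slc26a11 was detected in 2 cells, and Slc9a8, Slc9a9 and Slc26a6 in 1 each. Of the ion pump list 6 of 9 genes with a row were detected in 8 or more cells (46.8% of all rows were), among them the sodium pump subunit Atp1b3 in 14. The difference from the ion carriers was not tested.

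Of 8 carriers of organic anions and cations, 2 were detected in 8 or more cells (25%, against 46.8% of all rows). Slc10a6, which takes up sulfated steroids, was in 9 cells, and in 8 of them between 3.82 and 7.11, highest in cell 3. Slc6a8, the creatine importer, was detected in 7 cells, led by cell 6 (5.68) and cell 3 (5.31), and Slc17a5, which exports sialic acid from lysosomes, in 5, highest in cell 15 (7.04). Slc22a4, Slc22a5, Slc22a21 and Slc22a22 were detected in 1 cell each. Slc22a5 and Slc22a21, carnitine carriers that share letters (36.5% of those of Slc22a5), were both detected in cell 15 alone, at 3.98 and 2.30, and their separate values are uncertain. No vitamin carrier was detected in 8 or more cells. Slc19a1, the folate carrier, was detected in 5 cells, with 5.46 in cell 3, Slc23a2, which takes up ascorbate, the cofactor of collagen hydroxylation, in 4 cells at up to 3.39, and Slc5a6 in 3. Slc46a1 stayed at 0.93 or less.

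The last groups hold members whose substrate is not settled, or that are not transporters. Slc35f5 was detected in 11 cells, with 4.44 in cell 1. Slc35f6 was detected in 7 cells, Slc10a3 and Slc35e3 in 6, Slc35e1 in 4, Slc22a18 in 2, and Slc12a8 and Slc35e4 in 1. Slc22a18 stood at 5.98 in cell 1 and 4.89 in cell 2 and at 0.51 or less elsewhere. Despite their symbols 3 members are not transporters: Slc9a3r2, a scaffold for exchangers, was highest in cell 4 (7.02), Slc4a1ap, an adaptor, in cell 12 (7.27), and Slc7a6os, a gene on the strand opposite to Slc7a6, in cell 3 (4.67).

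**Figure D4:**
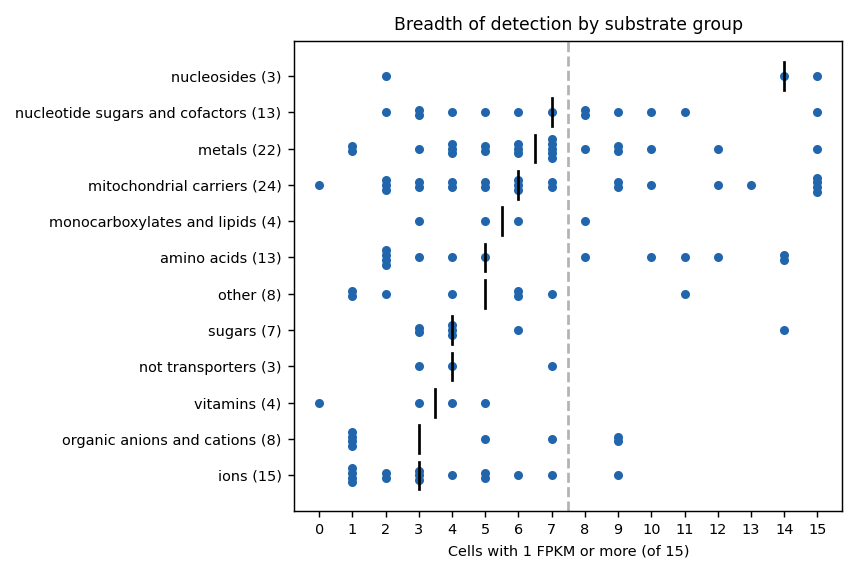
Number of cells (horizontal axis, of 15) in which each member (dot) was detected, by substrate group with the number of members in brackets; black bars are group medians and the dashed line separates 8 or more cells from fewer. Ion carriers and organic anion and cation carriers have medians of 3 cells, mitochondrial carriers of 6 with 4 members at 15.

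Each cell detected a smaller share of the members than of all rows. Members detected per cell ran from 40 in cell 12 (32.3%) to 61 in cell 2 (49.2%), with a median of 50, against 51.7% of all rows in every cell. The mean member value ran from 1.56 in cell 5 to 2.20 in cell 3. The number of rows at a cell's lowest value, which measures how empty a cell is, ran from 930 to 1974, and its rho with the members detected was −0.36 (r −0.35, n = 15 cells). Cells 6 and 10 held the highest value of the most members. Cell 6 held it for 17 members (13.7%, against 8.76% of all rows), among them Slc1a3, Slc1a5, Slc25a1 and Slc48a1, and cell 10 for 16 (12.9%, against 10.4%), among them Slc25a22 and Slc39a14. Cell 10 is near its share of all rows. Across cells the members' share followed that of all rows (rho 0.75, r 0.74), and the cells that were highest for many carriers were mostly highest for many genes.

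**Figure D5:**
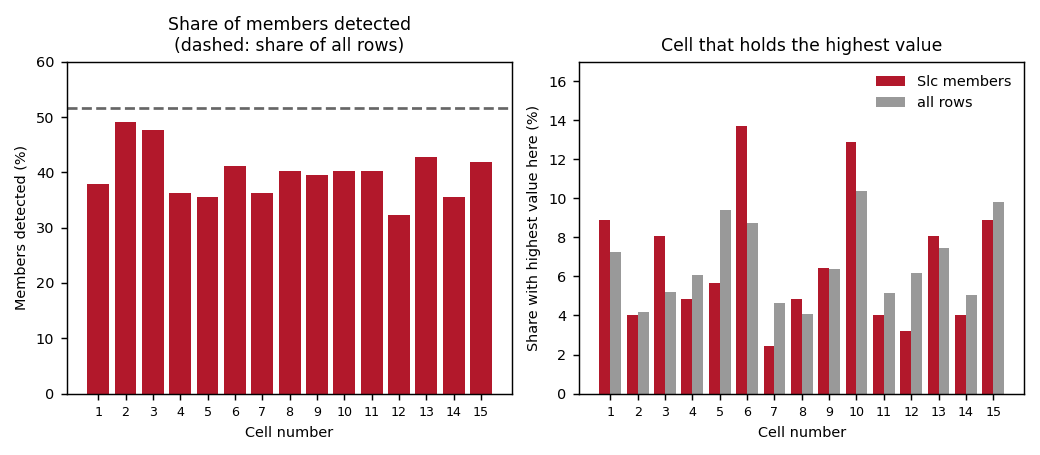
Left, share of the 124 members detected in each cell (bars, %) with the share of all rows (dashed, 51.7%). Right, share of members (red) and of all rows (grey) whose highest value lies in each cell (%): cell 6 holds 13.7% of members and 8.76% of rows.

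Few carriers ranked the cells alike. Over the 595 pairs of the 35 members detected in 8 or more cells, rho had quartiles of −0.17 and 0.20, a median of 0.02, and extremes of −0.66 and 0.82. All cells share the same processing. None of the 8 pairs chosen for a shared task, with rows for both genes, had a rho of 0.5 or more in size. The highest of the 595, picked for their size, were Slc3a2 with Slc25a17 (rho 0.82, r 0.63, and r 0.51 without cells 5 and 13), Slc25a5 with Slc25a17 (rho 0.81, r 0.75, and r 0.72 without cells 4 and 11) and Slc1a5 with its relative Slc1a3 (rho 0.69, r 0.75, and r 0.70 without cells 6 and 8). With this many pairs and 15 cells, they are given as a description.

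Partner genes outside the Slc symbols were described in the same way. Of 91 partner genes with a row, 60 were detected in 8 or more cells (46.8% of all rows were), and 23 in all 15 (12.1% of all rows were), and their median of mean values was 3.02, against 1.37 for the members. The lists were picked for well-known and often abundant genes, so the contrast describes the lists as well, and the difference was not tested. Of 10 carriers that have other symbols, such as Slco3a1 and Mfsd1, 4 were detected in 8 or more cells, and none in all 15.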

How the data were processed

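The data are 15 single-cell RNA libraries from Tomato+ cells of mouse inguinal fat, for which the labels' protocols name the SMART-Seq v4 3' DE and Nextera XT kits. TopHat2 and Cufflinks on GRCm38 are named per the submitters' processing notes. Program versions were not given in the sources used here. A single table was deposited by the authors, of 8446 rows and 15 cell columns, with 18 further unnamed columns that hold no values. It is named as FPKM, but the authors deposited log2 values: the highest is 13.69, and the columns, read as log2(FPKM + 1), sum to a mean of 592948 FPKM per cell (12675749 as natural logarithms). The log2 base is inferred from the values. The sorted columns differ by at most 0.0354 above 0.2, so the values had been quantile-normalized, which fixes how many rows pass a threshold in each cell. The design had assumed a normalized scale, and no further logarithm was taken. Depth is unknown.

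Members were matched by symbol, and all 124 carried the same symbol in the reference table of gene names. Substrate groups (12), partner genes and pairs were written from general knowledge, and 4 members were regrouped after the symbols, but not their values, had been seen. The members and lists were chosen with earlier results of these data known. Genes named with values followed a fixed rule: the 25 highest by median, the 3 highest of each group, the 15 with the largest gap between highest and median value among those reaching 5 FPKM, and the members of a list of 51 genes (34 with a row), 68 in all. Some members enter the counts but are not reported here by name. The other members are named with counts, or with values seen before they were chosen. Coordinates, lengths and exon overlaps come from GENCODE M21 (GRCm38), promoters from RefSeq GRCm38.p6 (101 members matched). Shared letters are 31-letter words of the longest transcript found in another gene's transcripts; 9 members shared 20% or more. Of the members, 29 share exon bases with a gene on the opposite strand, and no label states whether counting used strand. The labels name 1 group and no animal, so no p-value was computed. Python 3.11.15, numpy 2.4.6, scipy 1.17.1 and pandas 2.3.3 were used, and the functions were tested on simulated data.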

Additional observations from a re-analysis of the deposited data

How the results depend on the processing

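The carriers stayed below all rows in the share detected in 8 or more cells under each of 9 alternatives planned and 2 chosen after seeing the data, with a difference of −19.9 to −14.0 percentage points (−18.5 in the values reported). With some cells left out, "8 or more" became the nearest number above 50% of the cells left. At 5 FPKM in place of 1 FPKM, 3 members were detected in all cells, 23 in 8 or more and 43 in 2 or fewer, and the median cell detected 36. Asking also for 1% of a gene's highest value left 4 members in all cells. Keeping rows detected in at least 2 cells left 12 members in 2 or fewer cells. The median member level was −0.36 as log2(FPKM + 0.1), 1.65 with values multiplied by length and 1.98 with a natural logarithm. Its difference from all rows (−0.52) was −0.93 as log2(FPKM + 0.1) and −0.75 with a natural logarithm. Without the 16 members that share letters or exons with another gene, the median cell detected 42 members, and 14 of 15 cells had a smaller share of members than of rows (under each other alternative, all cells kept in it had). Metal carriers detected in 8 or more cells were 6 in the values reported, 11 with values multiplied by length, 3 at 5 FPKM and 2 without the members that share letters or exons. Of the main results, 131 values stayed and 12 moved, and of single groups and pairs 281 stayed and 23 moved. Counts stayed if within 1.5 times the reported count, and levels and members per cell if within 1 SD over cells. Share differences and rho had other fixed limits. Many values could not move. A rho rests on ranks over cells, which thresholds, logarithms and left-out genes do not change, and log2(FPKM + 0.1) keeps every detection call. The numbers that stayed are therefore no measure of how firm the results are. The pairs with a rho of 0.5 or more in size that were followed here were Slc3a2 with Slc25a17, Slc25a5 with Slc25a17 and Slc1a5 with Slc1a3. They had been picked for their size. No direction reversed among them, but most alternatives could not change a rho, so this is no support for these pairs. Cell 13, with cell cycle genes, was left out in 2 of these alternatives, in 1 of them together with cell 5, with mural genes. Another alternative left out cells 1, 11 and 14. No paired analysis was possible because there is 1 group and no test. Read depth is unknown, so how many reads stand behind a value near 1 FPKM cannot be given.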
